A study of Homo sapiens with 6 samples.

Results

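The DNA replication machinery was examined here as 40 genes, taken from the deposited tables by a list of gene symbols rather than by an expression threshold. They are 40 of the 60662 genes with a value, and all 40 passed the expression filter that left 16901 genes for testing. By role they comprise 11 genes of origin licensing, 6 of helicase activation, 4 of the DNA polymerase alpha-primase complex, 5 of polymerases delta and epsilon, 6 of the sliding clamp and its loader, 2 of Okazaki fragment maturation, 3 of the single-strand binding protein RPA and 3 of nucleotide supply.

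HCT116, an established human colorectal carcinoma cell line, was transduced with lentivirus and kept as stable cells carrying either a non-targeting shRNA (shCtrl, genotype given as wild type) or GMDS-AS1 shRNA2 (GMDS-AS1 knockdown, KD), both in serum-containing medium without a further treatment in the labels. Each group had 3 libraries of poly-A selected RNA, labelled as biological replicates without saying whether these were separate cultures or separate transductions, so that p-values measure the spread between these libraries, which may be technical. The knockdown rests on 1 shRNA, and whether its stable line was a pool or a clone is not given in the sources used here. The study also measured DNA synthesis with EdU labelling and reported a smaller share of HCT116 cells in S phase after knockdown. The comparison below asks how the transcripts of the replication machinery differed between the same kinds of cells.

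Replication begins when the origin recognition complex, CDC6 and CDT1 load the ring of MCM2, MCM3, MCM4, MCM5, MCM6 and MCM7 onto DNA in G1. In S phase CDC45 and the GINS complex join the ring to form the active helicase, primase starts each strand, polymerases delta and epsilon extend it on the clamp PCNA, and FEN1 and LIG1 join the lagging-strand pieces. Many of these genes are transcribed in a wave at the start of S phase under E2F transcription factors. In RNA from a whole culture, fewer cells in S phase and less RNA per cell cannot be told apart.

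The values are TPM, an expression unit that is set per transcript length and library total and keeps no read number, so depth per library and counting error are unknown. Per library, 15135 to 15248 genes reached 1 TPM in shCtrl and 14163 to 14292 in KD. Across genes, which do not count as independent replicates, Pearson's r of log2(TPM + 1) ran from 0.987 to 0.988 within groups and from 0.975 to 0.976 between them. Of 9 colorectal epithelial markers 6 passed the filter and VIL1, CDH17 and LGALS4 did not. The keratin KRT18 ran from 2902 to 3048 TPM in shCtrl and from 688 to 710 TPM in KD, while the epithelial adhesion gene EPCAM ran from 141 to 165 and from 144 to 160 TPM. Of 10 markers of other cell types only CD68 and COL1A1 passed the filter, and the leukocyte marker PTPRC was listed at 0 in all 6 libraries.

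The targeted transcript GMDS-AS1, listed as GMDS-DT, had 1.66, 2.21 and 1.34 TPM in shCtrl and 0.88, 0.91 and 0.79 TPM in KD. The groups did not overlap, and the log2 fold change of -0.41 ± 0.14 (SE) passed the test in limma (adjusted p = 0.0412). It no longer passed without the expression filter, with the replicate number as a block (adjusted p = 0.0523), or when any library other than shCtrl replicate 3 was left out. The designed 21-base target is shown because its strands define which other transcripts carry a matching seed. It lies on the plus strand at chr6:2413207-2413227 (GRCh38), within an exon of 2 of the 16 annotated GMDS-DT transcripts, and capitals mark bases 2 to 8 of each strand.
sense strand: aAGACCACagatagatggtaa
antisense strand: tTACCATCtatctgtggtctt
A 3′ UTR site matching the antisense seed, GATGGTA, occurred in 853 of 12918 tested genes with an annotated 3′ UTR (6.6%) and in 2 of the 40 replication genes, POLD3 and RPA1. A site for the sense seed, GTGGTCT, occurred in 1240 (9.6%) and in 2 members, MCM4 and RFC1. Over the tested genes the median log2 fold change was -0.07 with the antisense site and 0.02 without it. For the sense site it was -0.06 and 0.02. A match is a description of letters, and targeting was not tested.

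As examples of member promoters, windows from 110 bases before to 30 bases after a RefSeq transcription start (GRCh38.p14) are given for 5 genes, each read along the gene's own strand. They do not stand for all members. MCM2 and PCNA were higher in KD, CDC6 and RRM2 were lower, and MCM6 did not pass the test. Capitals mark matches to TTTCCCGC, TTTCGCGC, TTTGCCGC or TTTGGCGC, the E2F motif, or to CCAAT, the motif of NF-Y, on either strand.
MCM2, chr3:127598301-127598440, plus strand: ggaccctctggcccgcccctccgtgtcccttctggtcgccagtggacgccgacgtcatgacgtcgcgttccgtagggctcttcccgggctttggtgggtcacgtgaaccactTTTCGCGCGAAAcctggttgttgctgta
MCM6, chr2:135876414-135876553, minus strand: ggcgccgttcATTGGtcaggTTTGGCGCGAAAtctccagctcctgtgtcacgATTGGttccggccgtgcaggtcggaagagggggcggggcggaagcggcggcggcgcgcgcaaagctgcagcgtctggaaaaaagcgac
PCNA, chr20:5126593-5126732, minus strand: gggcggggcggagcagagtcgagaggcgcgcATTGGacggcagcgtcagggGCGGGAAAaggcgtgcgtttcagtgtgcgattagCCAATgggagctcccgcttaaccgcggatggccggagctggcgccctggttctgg
CDC6, chr17:40287769-40287908, plus strand: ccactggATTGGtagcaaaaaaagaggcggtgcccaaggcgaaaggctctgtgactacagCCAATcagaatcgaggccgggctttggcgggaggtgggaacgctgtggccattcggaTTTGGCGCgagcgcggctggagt
RRM2, chr2:10122629-10122768, plus strand: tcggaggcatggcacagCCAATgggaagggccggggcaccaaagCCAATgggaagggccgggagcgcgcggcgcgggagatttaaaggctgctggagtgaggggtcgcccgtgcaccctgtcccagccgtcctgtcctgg
In these windows MCM2 and MCM6 carry overlapping E2F matches on both strands, PCNA and CDC6 carry 1 each, and RRM2 carries none. MCM6, PCNA, CDC6 and RRM2 carry 2 CCAAT matches each, and MCM2 carries none. Only the exact letters given above were searched, here and below, so that related E2F sequences were not counted.

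Over the longer window from 250 bases before to 50 bases after the start, 34 of the 40 members were found in the RefSeq promoter table, and 18 of them (52.9%) held the E2F motif, beside 727 of 11046 tested genes (6.58%) and 3.99% of all genes in that table. CCAAT was present in 61.8% of the members, 42.8% of the tested genes and 39.7% of all genes in the table. Members called in either direction were found with and without the motif. Of the 18 with the E2F motif 8 were called higher and 3 lower, with a median log2 fold change of 0.10. Of the 16 without it 8 were called higher and 3 lower, with a median of 0.17. These counts use trimmed mean scaling only, on which the calls depend as given below, and 28.7% of all genes tested were then higher and 25.8% lower. The shares among all tested genes with the motif were not counted, so no conclusion on the motif is drawn. MCM4, MCM5, GINS4, POLD3, RPA2 and RPA3 were not found in the promoter table.

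The replication genes were called in both directions, often within 1 complex. Trimmed mean of M-values scaling was applied to the TPM, log2(TPM + 1) was compared with limma, and a gene was called at a Benjamini-Hochberg adjusted p under 0.05 over all genes tested. With this scaling 19 members (47.5%) were higher in KD, where 28.7% of all genes tested were, and 6 members (15%) were lower, where 25.8% were. Their median log2 fold change was 0.10, beside 0.00 over all genes, and their median size without sign was 0.36, beside 0.33. The members were more abundant than most genes, with a median of 32.6 TPM, which 20.5% of all genes tested exceeded. The shares of all genes, here and below, are not matched to the members in TPM, and the part of expression level in these differences was not tested. None of the 40 also passed a fold change of 2 with this scaling, which 7.17% of all genes did in either direction. RRM2 alone passed it in the TPM as deposited (-1.16, where 8.3% of all genes passed) and with upper-quartile scaling (-1.01, where 7.21% did), a combination tried after seeing the data. The values on the log2(TPM + 1) scale ran from -0.91 for RRM2 to 0.93 for MCM5, and the scale understates the change of low genes.

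How many members were called in each direction depended on the scaling between libraries. Trimmed mean scaling moved members by a median of 0.24 on the log2 scale relative to the TPM as deposited, in which the median of all genes was -0.20. In the TPM as deposited 10 members (25%) were higher and 20 (50%) lower, beside 16.3% and 40.3% of all genes. With upper-quartile scaling 16 (40%) were higher and 15 (37.5%) lower, beside 23.5% and 30.8% of all genes, and the median of all genes was -0.07. Called in the same direction with all 3 scalings were 10 members higher (25%, where 16.3% of all genes were) and 6 lower (15%, where 25.8% were). The 10 were ORC1, MCM2, MCM5, MCM7, GINS2, PRIM2, POLD2, PCNA, RFC2 and FEN1, and the 6 were ORC6, CDC6, GINS1, POLA1, RPA1 and RRM2. LIG1 was called with none of them. The calls of the other 23 depended on the scaling, and no member was called higher with one scaling and lower with another. In the TPM as deposited the groups did not overlap for 32 of the 40 members, beside 63.7% of all genes tested, and summed member TPM was 1959, 1938 and 1939 in shCtrl and 1936, 1877 and 1927 in KD.

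**Figure D1:**
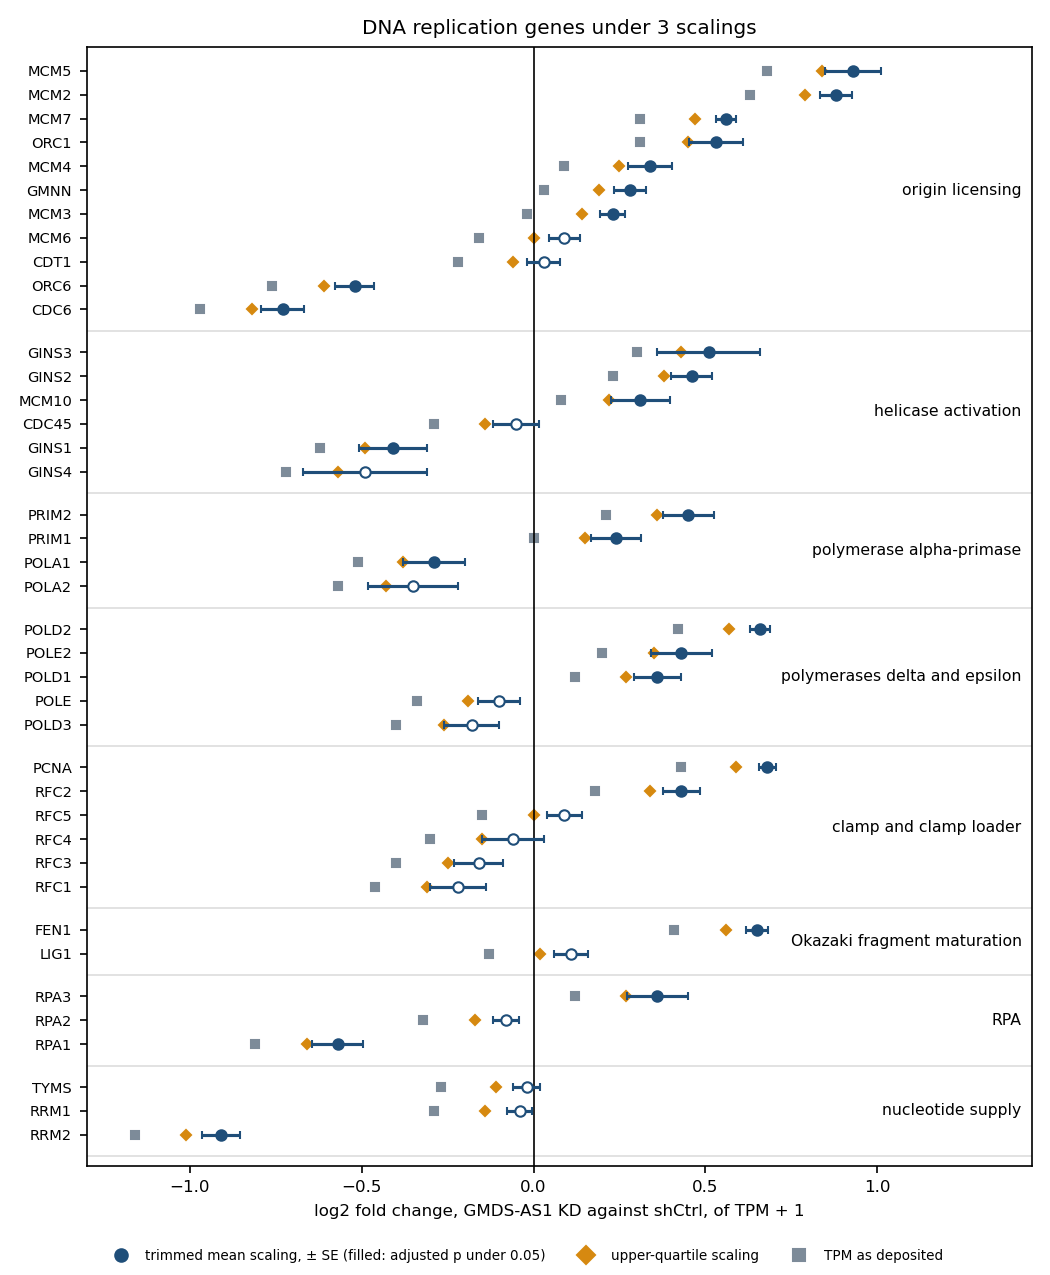
Log2 fold change of log2(TPM + 1), KD against shCtrl, for the 40 replication genes by role (n = 3 libraries per group). Circles are trimmed mean scaling with SE, filled where the limma adjusted p was under 0.05, diamonds are upper-quartile scaling and squares are TPM as deposited. Most roles hold genes on both sides of 0, from RRM2 at -0.91 to MCM5 at 0.93, and the choice of scaling shifts every gene by a similar amount.

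Origin licensing held both the highest member and one of the lowest. MCM5 (chr22:35400063-35425430), a subunit of the helicase ring, had 35.05, 38.66 and 40.33 TPM in shCtrl and 58.14, 57.99 and 69.01 TPM in KD. Every KD library lay above every shCtrl library, and MCM5 was higher in KD by 0.93 ± 0.08 (SE) on the log2 scale (limma adjusted p = 0.000104). MCM2 (chr3:127598223-127622436), the ring subunit that also binds histones, had 46.28, 45.92 and 41.75 TPM in shCtrl and 72.25, 66.55 and 70.29 TPM in KD. It was likewise higher in all 3 KD libraries (log2 fold change 0.88 ± 0.05, adjusted p = 9.51e-06). MCM7, the most abundant ring subunit, had 176.26, 168.32 and 169.76 TPM in shCtrl and 209.62, 213.29 and 217.52 TPM in KD, again without overlap (0.56 ± 0.03, adjusted p = 8.98e-06).

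CDC6 (chr17:40287633-40304657), the ATPase that loads the ring with the origin recognition complex, went the other way. It had 40.87, 40.05 and 41.79 TPM in shCtrl and 20.04, 21.87 and 19.36 TPM in KD, so that every KD library lay below every shCtrl library (ratio of mean TPM 0.499). Its log2 fold change was -0.73 ± 0.06 (limma adjusted p = 8.47e-05). ORC6, the smallest subunit of the origin recognition complex, was also lower, with 27.54, 26.95 and 25.16 TPM in shCtrl and 16.25, 14.61 and 14.91 TPM in KD (-0.52 ± 0.06, adjusted p = 0.000273). ORC1, another subunit of the same complex, was higher with 6.44, 5.99 and 5.58 TPM in shCtrl and 7.51, 8.13 and 7.42 TPM in KD (0.53 ± 0.08, adjusted p = 0.00133). The calls of CDC6, ORC6 and ORC1 held with each scaling.

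The other licensing genes changed less, and their calls depended on the scaling. MCM3, MCM4 and GMNN, which encodes the CDT1 inhibitor geminin, were higher after trimmed mean scaling (0.23, 0.34 and 0.28) and were not called in the TPM as deposited, where their groups overlapped. CDT1 and MCM6 were not called after trimmed mean scaling (0.03 and 0.09) and were lower in the TPM as deposited (-0.22 and -0.16). MCM6 had 45.43, 42.88 and 42.90 TPM in shCtrl and 40.49, 36.95 and 40.03 TPM in KD.

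The MCM ring is assembled from 1 copy of each of its 6 subunits, so their transcripts were set against each other within each library, where the scaling between libraries cancels. The ratio of MCM2 to MCM6 was 1.02, 1.07 and 0.973 in shCtrl and 1.78, 1.80 and 1.76 in KD. The mean ratio was 1.75 times as high in KD, and the groups were far apart. MCM2 to MCM3 went from 0.520, 0.544 and 0.477 to 0.860, 0.793 and 0.785, and MCM2 to MCM7 from 0.263, 0.273 and 0.246 to 0.345, 0.312 and 0.323. MCM2 to MCM5 overlapped between the groups, from 1.04 to 1.32 in shCtrl and from 1.02 to 1.24 in KD. Across the ring, mean TPM of the highest subunit was 4.5 times that of the lowest in shCtrl and 5.43 times in KD. The order by mean TPM in shCtrl was MCM7, MCM3, MCM4, MCM2, MCM6 and MCM5, in which MCM3 and MCM4 overlapped and MCM2 and MCM6 overlapped. In KD it was MCM7, MCM4, MCM3, MCM2, MCM5 and MCM6, in which MCM4 and MCM3 overlapped and MCM2 and MCM5 overlapped.

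**Figure D2:**
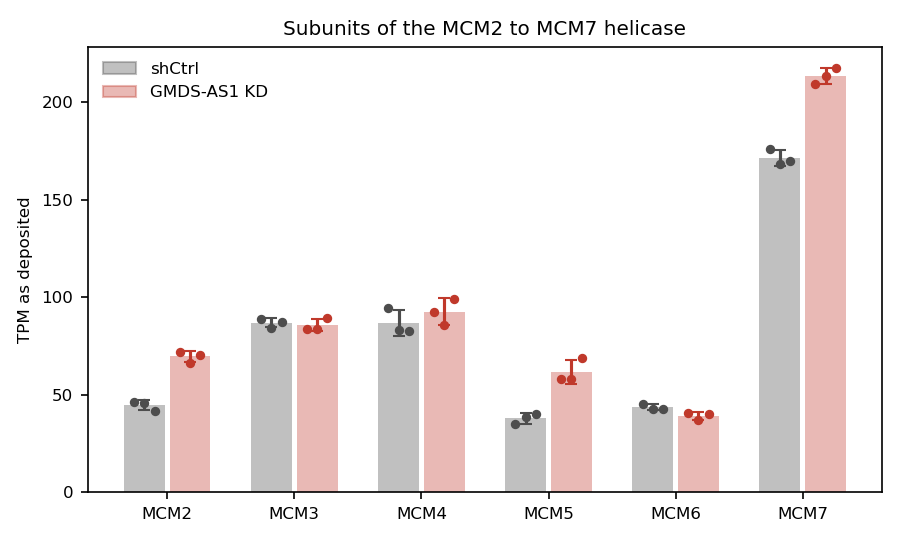
TPM as deposited of the 6 MCM ring subunits in shCtrl and KD. Bars are means with SD (n = 3), and points are libraries. MCM2, MCM5 and MCM7 lie higher in every KD library, the groups of MCM3 and MCM4 overlap, and MCM6 lies lower in KD in TPM as deposited only, since its log2 fold change is 0.09 after trimmed mean scaling.

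Genes of helicase activation split within the GINS complex, which has 4 subunits. GINS2 had 11.47, 11.00 and 11.42 TPM in shCtrl and 12.97, 13.07 and 14.26 TPM in KD and was higher (0.46 ± 0.06, limma adjusted p = 0.000612). GINS1 had 8.04, 7.34 and 6.43 TPM in shCtrl and 4.46, 3.91 and 4.77 TPM in KD and was lower (-0.41 ± 0.10, adjusted p = 0.0121). Neither overlapped between groups, and the ratio of GINS1 to GINS2 went from 0.701, 0.667 and 0.563 to 0.344, 0.299 and 0.335.

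GINS3 and GINS4 had the highest and the lowest log2 fold change of this role but were more variable. GINS3 had 6.57, 4.44 and 4.09 TPM in shCtrl and 6.12, 6.87 and 5.99 TPM in KD. Its first shCtrl library lay inside the KD range, and its call (0.51 ± 0.15, adjusted p = 0.0279) was lost with both other scalings, without the filter, and when shCtrl replicate 2 or 3 or KD replicate 1 or 2 was left out (adjusted p = 0.0556 to 0.0928). GINS4 had 13.51, 19.24 and 20.42 TPM in shCtrl and 11.94, 8.17 and 10.91 TPM in KD. The groups did not overlap, yet the log2 fold change of -0.49 ± 0.18 did not pass after trimmed mean scaling (adjusted p = 0.0602). It passed as lower in the TPM as deposited (-0.72, adjusted p = 0.0135), with upper-quartile scaling (-0.57, adjusted p = 0.0317), with a filter of 1 TPM in every library, and without shCtrl replicate 1 (-0.68, adjusted p = 0.0107). GINS4 shares 1159 exon bases with the antisense gene AC009630.2, which had 3.67 to 5.22 TPM in shCtrl and 3.57 to 4.15 TPM in KD, and GINS3 shares 558 with the antisense gene AC009118.2, which had 1.22 to 1.98 and 2.36 to 2.53 TPM. MCM10, a scaffold that helps to activate the helicase, was called higher (0.31) after trimmed mean scaling only, and its call was lost without shCtrl replicate 2 or 3 or KD replicate 1. CDC45 was called lower in the TPM as deposited only (-0.29) and had -0.05 after trimmed mean scaling.

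In the polymerase alpha-primase complex, which makes the primers, the primase subunits lay above 0 and the polymerase subunits below 0 after trimmed mean scaling. PRIM2, the large primase subunit, had 13.83, 12.65 and 13.79 TPM in shCtrl and 17.15, 14.54 and 15.50 TPM in KD (0.45 ± 0.07, limma adjusted p = 0.00215). POLA1, the catalytic polymerase subunit, had 9.98, 9.93 and 9.52 TPM in shCtrl and 6.55, 7.33 and 5.88 TPM in KD (-0.29 ± 0.09, adjusted p = 0.0306). For both genes the groups were separate, but the POLA1 call was lost without the filter and when any library other than KD replicate 2 was left out (adjusted p = 0.0545 to 0.0780). POLA2, its accessory subunit, had 8.32, 9.09 and 6.91 TPM in shCtrl and 5.69, 4.17 and 5.60 TPM in KD. POLA2 did not overlap between groups and did not pass after trimmed mean scaling (-0.35 ± 0.13, adjusted p = 0.0575), while it passed as lower with the other scalings and without shCtrl replicate 3 (-0.46, adjusted p = 0.0336). POLA2 shares 2012 exon bases with AP000944.2 on the same strand, a gene with at most 2.72 TPM in shCtrl and 2.17 TPM in KD. The ratio of POLA1 to POLA2 overlapped between groups, from 1.09 to 1.38 in shCtrl and from 1.05 to 1.76 in KD. PRIM1, the catalytic primase subunit, was called higher after trimmed mean scaling only (0.24, adjusted p = 0.0283), and this call was lost when any library other than shCtrl replicate 1 was left out. PRIM1 shares 33 exon bases on the same strand with NACA, which ran from 1088.38 to 1156.59 TPM in shCtrl and from 1304.27 to 1357.46 TPM in KD.

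Polymerase delta was represented by 3 subunits and polymerase epsilon by 2. POLD2 (chr7:44114681-44124358), an accessory subunit of polymerase delta, had 161.28, 163.20 and 164.62 TPM in shCtrl and 223.82, 213.23 and 216.53 TPM in KD. All KD libraries lay above all shCtrl libraries, and the change (0.66 ± 0.03, limma adjusted p = 4.43e-06) held with each scaling. POLD3, another accessory subunit, had 8.97, 7.71 and 8.09 TPM in shCtrl and 5.78, 6.28 and 5.96 TPM in KD. POLD3 did not overlap between groups, yet its log2 fold change of -0.18 ± 0.08 did not pass after trimmed mean scaling (adjusted p = 0.1), and it passed as lower with the other scalings. The ratio of POLD1 to POLE, the catalytic subunits of delta and epsilon, was 0.866, 0.957 and 0.883 in shCtrl and 1.27, 1.24 and 1.25 in KD. POLD1 and POLE2 were called higher after trimmed mean and upper-quartile scaling (0.36 and 0.43 with the former), and POLE was called lower with upper-quartile scaling and in the TPM as deposited (-0.19 and -0.34).

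PCNA (chr20:5114953-5126626), the sliding clamp that tethers the polymerases, had 172.62, 172.86 and 165.39 TPM in shCtrl and 231.18, 230.19 and 228.56 TPM in KD. It was the most abundant member in KD, and its higher level (0.68 ± 0.03, limma adjusted p = 2.39e-06) held with each scaling. Of the clamp loader, RFC2 alone was higher with each scaling, with 34.56, 31.54 and 35.08 TPM in shCtrl and 39.04, 37.48 and 38.61 TPM in KD (0.43 ± 0.05, adjusted p = 0.000555). RFC1, the large subunit of the loader, had 33.63, 32.42 and 31.31 TPM in shCtrl and 25.48, 24.13 and 20.67 TPM in KD. Its groups did not overlap, its log2 fold change of -0.22 ± 0.08 did not pass after trimmed mean scaling (adjusted p = 0.0607), and it passed without KD replicate 1 (-0.27, adjusted p = 0.0374). The ratio of RFC1 to PCNA went from 0.195, 0.188 and 0.189 to 0.110, 0.105 and 0.0904. RFC1 and RFC3 were lower with both other scalings, and RFC4 and RFC5 in the TPM as deposited only (-0.30 and -0.15). RFC4 shares 21 exon bases with EIF4A2 on the opposite strand, which ran from 412.58 to 448.74 TPM in shCtrl and from 368.72 to 375.72 TPM in KD.

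In Okazaki fragment maturation, FEN1 (chr11:61792637-61797244), the nuclease that trims the flaps, had 43.37, 42.03 and 42.06 TPM in shCtrl and 57.12, 55.23 and 57.45 TPM in KD. FEN1 was higher in each KD library (0.65 ± 0.03, limma adjusted p = 7.74e-06). LIG1, the ligase that seals the nicks, had 33.15, 32.20 and 30.82 TPM in shCtrl and 30.77, 27.59 and 29.03 TPM in KD, and it did not pass after trimmed mean scaling (0.11 ± 0.05, adjusted p = 0.104). The ratio of FEN1 to LIG1 went from 1.31, 1.31 and 1.36 to 1.86, 2.00 and 1.98. FEN1 shares 166 exon bases with TMEM258 on the opposite strand, which ran from 136.93 to 149.82 TPM in shCtrl and from 66.19 to 72.89 TPM in KD. Whether the counting used strand is not given in the sources used here, and the part of shared reads in these values was not tested.

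RPA, which coats single-stranded DNA, is a complex of RPA1, RPA2 and RPA3. RPA1 (chr17:1829702-1900082), the large DNA-binding subunit, had 45.33, 42.67 and 49.08 TPM in shCtrl and 24.52, 27.36 and 24.80 TPM in KD. All KD libraries were below all shCtrl libraries (-0.57 ± 0.08, limma adjusted p = 0.000733). RPA3, the small subunit, had 30.55, 33.31 and 31.87 TPM in shCtrl and 37.00, 37.08 and 30.41 TPM in KD, where the third KD library lay below the shCtrl range. RPA3 was called higher after trimmed mean and upper-quartile scaling (0.36 ± 0.09 and adjusted p = 0.0122 with the former) and not in the TPM as deposited. The ratio of RPA3 to RPA1 went from 0.674, 0.781 and 0.649 to 1.51, 1.36 and 1.23, so that the more abundant of the pair differed between the groups. RPA2 was lower with upper-quartile scaling and in the TPM as deposited (-0.17 and -0.32).

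Nucleotide supply held the largest fall of the 40 genes. RRM2 (chr2:10120698-10131419), the S-phase regulatory subunit of ribonucleotide reductase, had 186.17, 201.34 and 212.51 TPM in shCtrl and 90.01, 88.60 and 87.48 TPM in KD. The groups were far apart, and the log2 fold change of -0.91 ± 0.06 (limma adjusted p = 1.75e-05) held with each scaling, from -1.16 in the TPM as deposited to -0.91. RRM1, the catalytic subunit of the same enzyme, had 44.00, 44.56 and 42.82 TPM in shCtrl and 34.89, 35.37 and 36.79 TPM in KD, with -0.04 ± 0.04 after trimmed mean scaling (adjusted p = 0.335). The ratio of RRM2 to RRM1 lay between 4.23 and 4.96 in shCtrl and between 2.38 and 2.58 in KD. TYMS, the thymidylate synthase, had 167.84, 158.10 and 161.33 TPM in shCtrl and 140.28, 128.04 and 135.53 TPM in KD, with -0.02 ± 0.04 after trimmed mean scaling (adjusted p = 0.678). RRM1 and TYMS were both lower with the other scalings (-0.29 and -0.27 in the TPM as deposited). RRM2 was the most abundant member in shCtrl and lay below TYMS in all 3 KD libraries. TYMS shares 967 exon bases with ENOSF1 on the opposite strand, which ran from 34.69 to 35.17 TPM in shCtrl and from 32.71 to 33.64 TPM in KD.

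**Figure D3:**
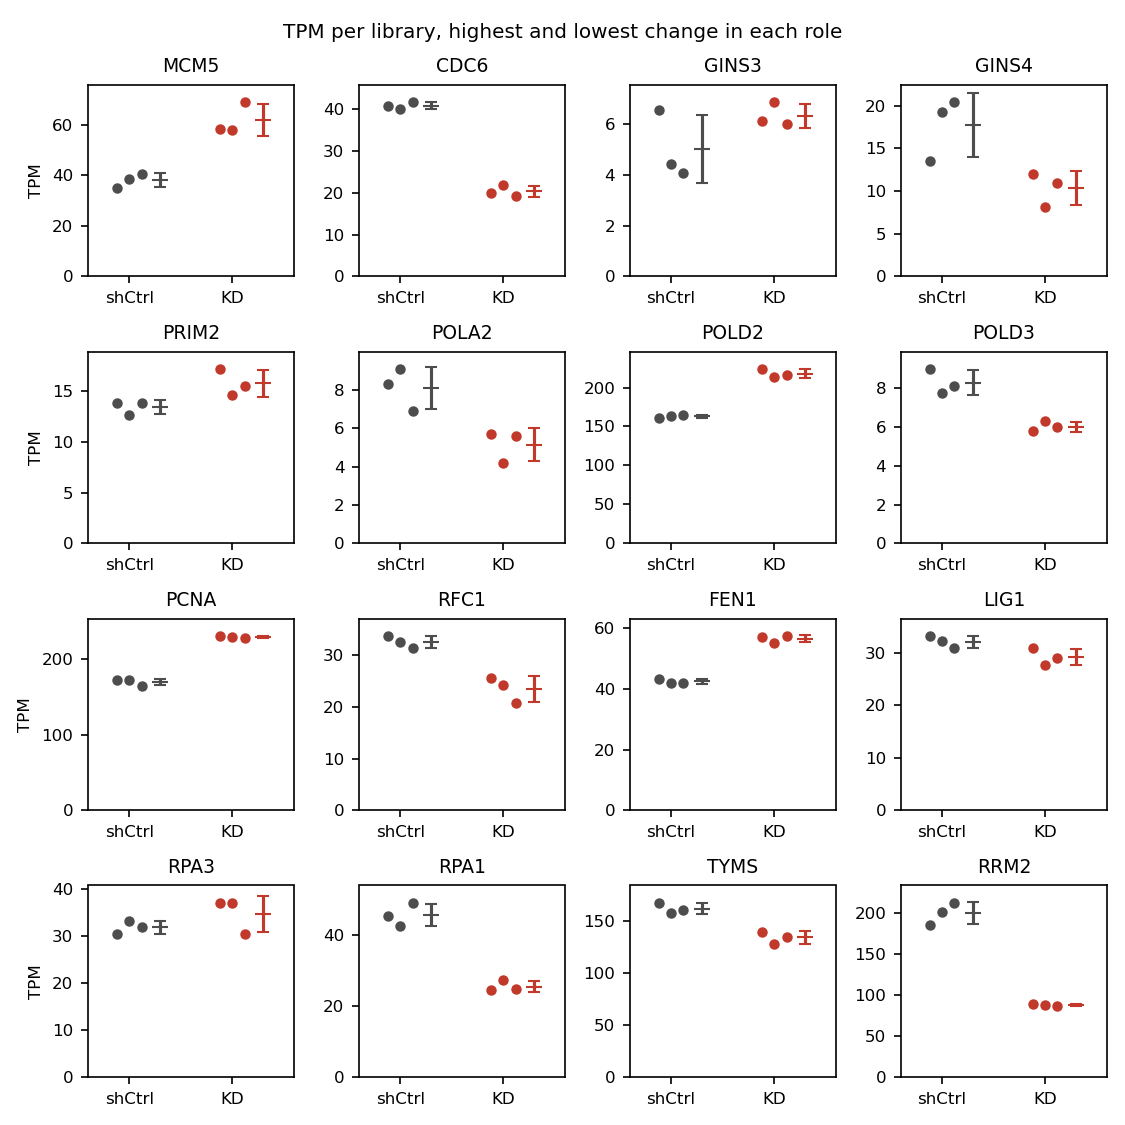
TPM as deposited in each library for the member with the highest and the member with the lowest log2 fold change of each role, with mean and SD beside the points (n = 3 per group). RRM2, CDC6 and RPA1 lie lower and MCM5, POLD2, PCNA and FEN1 lie higher in every KD library, while the groups overlap for GINS3 and RPA3.

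Of 20 pairs of members compared as ratios within libraries, 18 did not overlap between the groups. Separate groups were common for any genes, since 59.4% of all pairs among 16219 tested genes without a value of 0 were separate, and of all 780 pairs of members 583 (74.7%) were. In each of these 18 the exact two-sided permutation test over the 6 libraries gave p = 0.1, the smallest that 3 against 3 can give, with an adjusted p of 0.111 over the 20 pairs, so that no pair could pass a threshold of 0.05. The 20 pairs were picked by name from members chosen with earlier results known, so the 18 are not a share of unselected pairs. The pairs share genes and are not independent of each other. The largest shift was that of CDC6 to ORC1, from 6.35, 6.69 and 7.49 to 2.67, 2.69 and 2.61, a log2 difference of -1.36 between the group means. GINS3 to GINS4 shifted by 1.13, but its first shCtrl library at 0.486 lay close to the lowest KD library at 0.513.

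**Figure D4:**
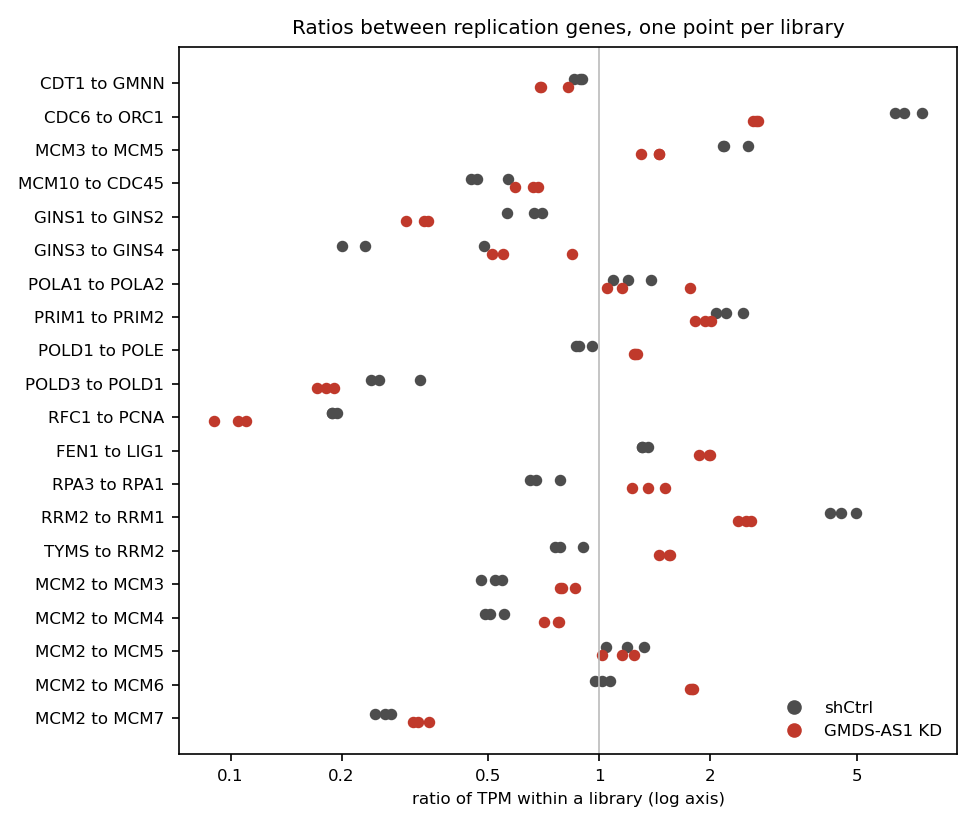
Ratio of the TPM of the first to the second gene of each pair, 1 point per library on a log axis, for 20 pairs of replication genes (n = 3 per group). The groups are separate for 18 pairs, where 59.4% of all pairs of tested genes are separate, and overlap for POLA1 to POLA2 and MCM2 to MCM5, and CDC6 to ORC1 is shifted furthest.

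A further 40 replication genes that are not members were also called in both directions after trimmed mean scaling. Of these 12 were higher (30%) and 12 lower (30%), near the 28.7% and 25.8% of all genes, with a median of 0.07. The lowest were POLE4 and ASF1B. POLE4, a histone-fold subunit of polymerase epsilon, had 19.15, 19.20 and 19.37 TPM in shCtrl and 2.84, 4.20 and 4.06 TPM in KD (-1.90 ± 0.13, limma adjusted p = 2.63e-05). ASF1B, a histone chaperone, had -1.37 ± 0.04. The highest were POLDIP2, a polymerase delta interactor, at 1.24 ± 0.04, and ORC5, an origin recognition subunit, at 0.70 ± 0.08. In the TPM as deposited 5 of these 40 (12.5%) were higher and 17 (42.5%) lower, near the 16.3% and 40.3% of all genes.

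Among 20 other nucleotide supply genes 6 were higher and 5 lower (median -0.03). IMPDH2, of guanine nucleotide synthesis, and the kinase NME1 were highest (0.82 and 0.64), and DUT, the dUTP pyrophosphatase, was lowest (-0.52). Of 18 genes of the E2F and RB family 5 were higher and 7 lower (median -0.17), with MYBL2 and TFDP2 highest (0.72 and 0.59) and LIN52 and E2F5 lowest (-1.20 and -0.86). Of 30 G2 and mitosis genes 10 were higher and 9 lower (median 0.03). PRC1 and PLK1, a spindle midzone protein and a mitotic kinase, were highest (0.85 and 0.70), and TPX2 and CDK1, a spindle assembly factor and the mitotic cyclin-dependent kinase, were lowest (-1.36 and -0.87). These counts, after trimmed mean scaling, stand beside the 28.7% of all genes called higher and the 25.8% called lower. In the TPM as deposited the counts were 5 higher and 11 lower for nucleotide supply, 3 and 12 for the E2F and RB family, and 5 and 15 for G2 and mitosis, to be read against 16.3% of all genes higher and 40.3% lower.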

How the data were processed

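Poly-A selected RNA libraries of HCT116 cells, 3 with shCtrl and 3 with GMDS-AS1 shRNA2, were compared. The authors deposited 1 TPM value per gene and library. Their methods name Cufflinks and RSEM for expression and DESeq2 for their own comparison, and the submitters' processing notes name Trimmomatic 0.27, TopHat2 2.1.1 and GRCh38.p13. TPM keeps no read total, so depth and counting error are not given. A value was read for 60662 genes, and 2 genes with broken lines were left out.

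The test covered genes that reached 0.5 TPM in 3 or more libraries. Scaling used trimmed means of M-values on TPM (30% of log ratios and 5% of means trimmed from each end). A two-sided limma 3.58.1 model of log2(TPM + 1) with a variance trend and no replicate block was run in R 4.3.3. The fit was also run on simulated independent values, with as many genes raised as lowered and no shift between groups. That simulation does not test the choice of scaling. Deviations of same-numbered libraries from their group means correlated at 0.029, -0.0376 and 0.0142, so no pairing by number was seen. Whether same-numbered libraries shared a batch is not given in the labels. Ratios used an exact permutation test (scipy 1.17.1). Gene positions and exon overlaps come from the GENCODE v29 annotation of GRCh38, and promoters from RefSeq on GRCh38.p14.

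The members and the gene lists were chosen with earlier results of these data known. Named are, in each role, the members with the highest and lowest log2 fold change, every member whose call differed between the 3 scalings, of each further list the 2 highest and 2 lowest called genes, and GMDS-DT. One value under this rule is not reported here. Other members were named because their calls held with every scaling. Alternatives were other scalings, a pseudocount of 0.1, other filters, no variance trend, a replicate block, a fold of 2 and each library left out.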

Additional observations from a re-analysis of the deposited data

How the results depend on the processing

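In the TPM as deposited, 10 members were higher and 20 lower, and their median log2 fold change turned to -0.14. Over all genes 2756 were then higher (16.3%) and 6814 lower (40.3%). Higher were 5 of 40 other replication genes (12.5%), 3 of 18 of the E2F and RB family (16.7%) and 5 of 30 of G2 and mitosis (16.7%). Lower were 11 of 20 other nucleotide supply genes (55%), 12 of the E2F and RB family (66.7%) and 15 of G2 and mitosis (50%). Upper-quartile scaling gave 15 members lower (37.5%) with a median of 0.01 and 8 other nucleotide supply genes lower (40%), beside 30.8% of all genes. Requiring 1 TPM in every library gave 19 members higher and 12 lower, with a median of 0.05. Over all genes 4246 were higher and 3875 lower with that filter, out of fewer genes tested. With a fold of at least 2 there were 0 members higher and 0 lower after trimmed mean scaling. With that fold in the TPM as deposited or after upper-quartile scaling, tried after seeing the data, there were 0 higher and 1 lower, RRM2 (-1.16 and -1.01).

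Signs turned for members near 0. Log2 fold changes in the TPM as deposited were -0.22 for CDT1, -0.02 for MCM3, -0.16 for MCM6, -0.15 for RFC5 and -0.13 for LIG1. With upper-quartile scaling it was -0.06 for CDT1 and -0.00 for MCM6, and with 1 TPM in every library -0.02 for CDT1. Without the filter TYMS had 0.01. With 1 library left out CDT1 ran from -0.02 to 0.06, below 0 without shCtrl or KD replicate 3 (-0.02 and -0.01). CDC45 ran from -0.09 to 0.02, RFC4 from -0.14 to 0.04 and TYMS from -0.07 to 0.01, each above 0 only without KD replicate 2. The cause was not tested.

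GMDS-DT was -0.68 with a pseudocount of 0.1 (adjusted p = 0.0424), -0.39 without the filter (adjusted p = 0.15) and -0.51 to -0.30 with 1 library left out. With the replicate block it was -0.41 (adjusted p = 0.0523), and the members gave 19 higher and 7 lower, RFC1 being added (-0.22, adjusted p = 0.0463). Over all genes the block gave 4569 higher and 4071 lower, and 2 of 6 libraries correlated best with their own number. Another pseudocount or no variance trend kept the call and direction of each of the 40 members. Read depth is unknown, so low members such as GINS3 cannot be given a counting error.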
